A study of Mus musculus with 10 samples.

Results

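The genes of interest were 10 rapidly inducible regulators: the Krüppel-like factors Klf2, Klf4 and Klf6, the early growth response factors Egr1, Egr2 and Egr3, the orphan nuclear receptors Nr4a1, Nr4a2 and Nr4a3, and the nuclear protein gene Ier2. They were taken by symbol from a table of 15078 genes, each matched 1 row, and all 10 passed the filter on low values. RNA was sequenced in bulk from mouse skeletal stromal cells sorted as CD45-Ter119-CD31-CD51+CD200+ in 3 groups. BM-MSCs (bone marrow mesenchymal stem cells, n = 3) and P-SSCs (periosteal skeletal stem cells, n = 3) came from adult wild-type mice at steady state with no treatment, and the labels mark these 6 libraries as re-analyses of samples of another series. Graft BM-MSCs (n = 4) came from the marrow of femurs of transgenic mice carrying a tamoxifen-inducible Cre under the Postn promoter (Postn-CreER) with a Tomato reporter, 5 months after the bones had been placed under the skin of wild-type recipients. Tamoxifen was given soon after transplantation and Tomato+ cells were sorted, so these cells had used the Postn promoter in the graft or descended from cells that had. Genotype, tamoxifen, transplantation and Tomato sorting therefore differed together between graft cells and both steady-state groups. The titles of the steady-state libraries read host, steady state. Graft cells had spent 5 months in recipients, and any difference in age between the groups cannot be told apart from these items either. Digestion with the same enzymes lasted longer for periosteum than for marrow, and this cannot be told apart from the tissue. BM-MSC 2+4 and P-SSC 2+5 each pooled RNA of a pair of animals, and the replicates of a group came from different mice, while whether marrow and periosteum of the same mouse were used is not given in the sources used here. In bulk RNA, more cells using a gene cannot be told apart from more RNA of that gene in each cell.

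Genes of this kind are switched on within minutes of a stimulus, without new protein being made, through factors already present in the cell. Growth factors and stretch act on EGR genes through the MAP kinases ERK and the serum response factor SRF, which binds the CArG box. Fluid flow raises Klf2 and Klf4 through the kinase ERK5 and MEF2 factors, best known in endothelium, and hormones that raise cyclic AMP act on NR4A genes through CREB, which binds the cyclic AMP response element (CRE). The EGR proteins bind GC-rich DNA, the KLF proteins bind GC boxes and CACCC elements, and the NR4A receptors act without a known natural ligand. The same genes are known to respond to tissue digestion and sorting.

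Library sizes were 15415421 to 25223295 reads. Genes detected numbered 9308 to 11674 in grafts and 12217 to 13341 in the other libraries. Counting error was small for the abundant members, and only Egr3, Nr4a2 and Nr4a3 came near the floor of 3 reads. The libraries fell into a pair of classes by base composition, for which the labels name no batch: genes with a GC content above 65% were high in the 4 graft libraries and in P-SSC 4, and low in the 3 BM-MSC libraries, P-SSC 1 and P-SSC 2+5. Between grafts and BM-MSCs this difference cannot be told apart from the group, and values by class are given for the members below. A fit with the class as a covariate compares grafts and BM-MSCs only through the P-SSC libraries, with P-SSC 4 as the only link between the classes. A call lost in that fit therefore cannot decide whether a change between grafts and BM-MSCs remains. The marrow markers (6 genes, among them Cxcl12 and Lepr) summed to 667905 to 1131721 in the marrow and graft libraries and to 4579 to 8883 in P-SSCs, and the periosteal markers (5 genes, among them Pi16 and Cilp) summed to 232000 to 379138 in P-SSCs and to 332 to 9040 in the others. The 11 leukocyte markers in the table summed to 22350 to 53722 in BM-MSCs, 541 to 2325 in P-SSCs and 4767 to 85592 in grafts, the top value being graft 3, and the 6 red cell markers to 58705 to 205924, 202 to 1407 and 1483 to 27755. Of the endothelial markers, 6 of 10 were in the table. Cdh5 was at 0 in every BM-MSC and graft library, and Tek, Emcn and Tie1 were also at 0 in all graft libraries. Emcn and Tie1 were at 0 in P-SSCs as well, where Tek had a mean of 4981, and had 24.3 to 81.5 and 57.4 to 204 in BM-MSCs. The 6 genes summed to 3432 to 7106 in P-SSCs, 217 to 534 in BM-MSCs and 0 to 275 in grafts. The part of these other cells in the results was not tested.

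RefSeq promoter entries (GRCm38.p6) were found for 7 of the 9 members looked up. The bases before the start site are shown for 5 of the 6 genes whose level passed the test below, Egr1 not being among those looked up. They are shown up to the first annotated exon where an exon reached into the 250 bases. Some elements through which such genes are known to respond were looked for there, and a MEF2 site was not among them. Capitals mark the CRE core TGACG, the EGR element GCGGGGGCG, the KLF element CACCC and the CArG box, on either strand. Klf4 (chr4:55532476-55532725, minus strand) and Nr4a1 (chr15:101266596-101266845, plus strand) were the genes higher in P-SSCs. The Klf4 bases lie outside any annotated gene, and those of Nr4a1 lie in an intron that follows a start further upstream.
Klf4: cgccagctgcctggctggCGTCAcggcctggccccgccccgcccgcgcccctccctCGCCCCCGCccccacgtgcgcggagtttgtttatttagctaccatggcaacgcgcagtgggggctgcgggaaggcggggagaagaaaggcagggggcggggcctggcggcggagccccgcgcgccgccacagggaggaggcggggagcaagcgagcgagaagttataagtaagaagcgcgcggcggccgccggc
Nr4a1: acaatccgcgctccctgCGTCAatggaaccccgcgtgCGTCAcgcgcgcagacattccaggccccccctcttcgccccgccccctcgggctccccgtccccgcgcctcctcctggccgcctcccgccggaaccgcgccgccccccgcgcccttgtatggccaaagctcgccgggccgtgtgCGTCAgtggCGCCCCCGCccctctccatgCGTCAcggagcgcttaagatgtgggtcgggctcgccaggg
Klf2 (chr8:72318812-72319032, plus strand), Nr4a3 (chr4:48045055-48045152, plus strand) and Egr2 (chr10:67537619-67537868, plus strand) were higher in graft BM-MSCs than in BM-MSCs. The Klf2 and Nr4a3 bases end at the first annotated exon, and those of Egr2, the third of 5 entries, lie in an intron that follows a start further upstream.
Klf2: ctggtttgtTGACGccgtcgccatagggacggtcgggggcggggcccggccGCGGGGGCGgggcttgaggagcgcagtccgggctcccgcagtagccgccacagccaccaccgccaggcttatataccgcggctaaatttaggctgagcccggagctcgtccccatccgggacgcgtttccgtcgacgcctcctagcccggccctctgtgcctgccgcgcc
Nr4a3: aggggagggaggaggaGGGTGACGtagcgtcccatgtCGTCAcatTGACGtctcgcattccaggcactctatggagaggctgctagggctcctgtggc
Egr2: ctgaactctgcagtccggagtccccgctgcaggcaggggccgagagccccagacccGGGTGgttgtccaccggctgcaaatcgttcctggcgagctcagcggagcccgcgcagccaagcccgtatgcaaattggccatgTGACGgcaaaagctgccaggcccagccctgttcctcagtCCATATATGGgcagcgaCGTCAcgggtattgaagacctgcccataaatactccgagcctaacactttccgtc
Over the full 250 bases the CRE core occurred at 4 places in each of Nr4a1, Nr4a2 and Nr4a3, at 2 places in 3 of the 5 Egr2 entries, at 1 place in Klf2 and in Klf4, and at none in Klf6. At least 1 CRE core was present in 17.8% of 32851 promoter windows of the same length. In the Nr4a3 window the first CRE core overlaps a CACCC element. The EGR element occurred once each in Klf2, Klf4 and Nr4a1, where it overlapped a GC box, GGGCGG, in all 3, and was present in 2.57% of windows. A GC box as such was present in 32.7% of windows. A CArG box was present in 4 of the 5 Egr2 entries and in 1.47% of windows. Egr2 entries 3, 4 and 5 overlap, so their CArG box and their CRE cores are the same bases. The full CRE TGACGTCA, the NR4A element AAAGGTCA and the AP-1 element TGACTCA were found in none of the member windows, and in 1.55%, 1.34% and 4.46% of all windows. These are matches of letters in a short window.

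BM-MSCs had the lowest mean log2 level of all 10 members, and 2 patterns of change passed the test. Klf2, Egr1, Egr2 and Nr4a3 were higher in graft BM-MSCs than in BM-MSCs. Klf4 and Nr4a1 were higher in P-SSCs than in BM-MSCs and lower in grafts than in P-SSCs. The 3 comparisons share groups and were therefore not independent of each other. They also share 1 estimate of the spread, so leaving out a library of the third group can change a call without changing the log2 change. With limma on log2(normalized count + 1) and a Benjamini-Hochberg adjusted p threshold of 0.05 over 13644 genes, 4 of 10 members rose in grafts against BM-MSCs and none fell, where 7.67% of all genes were called and 2.61% were called higher. In P-SSCs against BM-MSCs 2 of 10 rose and none fell, where 9.15% of all genes were called and 4.57% called higher. In grafts against P-SSCs 2 of 10 fell and none rose, a share near the background of 18.1% called and 12.0% called lower. At an unadjusted p under 0.05 the counts were 8, 6 and 4 members, against 25.5%, 18.7% and 32.8% of all genes. The members were chosen with earlier results of these data known, so setting them beside all genes is not an independent test. The direction of the 10 higher means held under every scaling and test tried, except that adding the library class as a covariate gave Nr4a2 a log2 change of -0.02 in grafts against BM-MSCs, that a replicate block gave Egr3 -0.04 in P-SSCs against BM-MSCs, and that leaving out BM-MSC 1 gave Nr4a1 -0.03 in grafts and Egr3 -0.27 in P-SSCs, each against BM-MSCs, as did leaving out P-SSC 2+5 for Egr3 (-0.47).

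**Figure D1:**
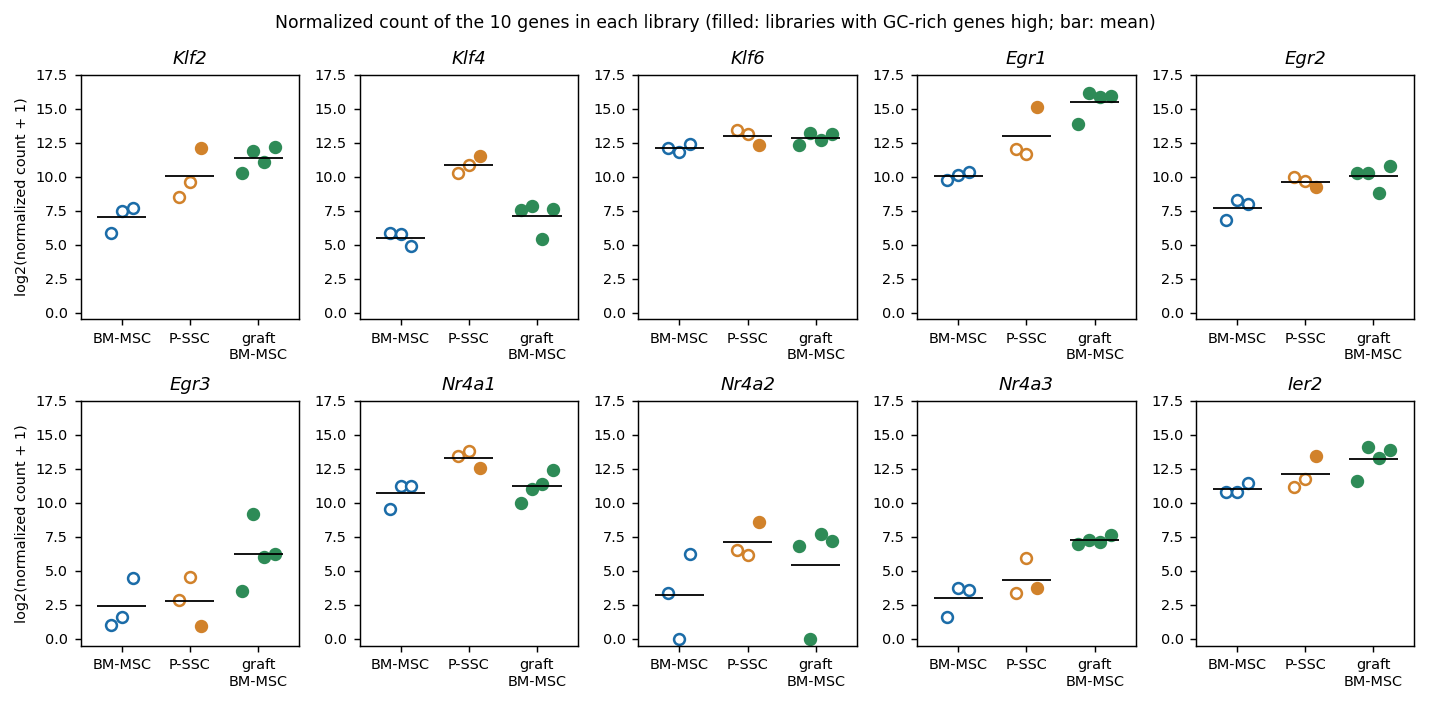
Log2(normalized count + 1) of the 10 members in each library, with 1 panel per gene, 1 circle per library and a bar at the group mean. Filled circles are the libraries in which GC-rich genes were high; P-SSC 4, the filled P-SSC circle, stands with the grafts for Klf2, Egr1 and Ier2, and Klf4 and Nr4a1 are highest in all 3 P-SSC libraries.

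The median log2 change of the members in grafts against BM-MSCs was 2.28, beside -0.53 over all genes tested, of which 34.4% had a higher mean in grafts. Every graft library had fewer genes detected than any other library, and with edgeR this median over all genes was -0.05. In P-SSCs against BM-MSCs the medians were 2.26 and 0.00, and in grafts against P-SSCs 0.74 and -0.47. All graft values lay above all BM-MSC values for 5 members (Klf2, Egr1, Egr2, Nr4a3 and Ier2), where this held for 10.3% of all genes. All P-SSC values lay above all BM-MSC values for 5 members as well (Klf2, Klf4, Egr1, Egr2 and Nr4a1), where it held for 15.1% of all genes. Between grafts and P-SSCs, Nr4a3 was higher without overlap (8.06% of genes) and Klf4 and Nr4a1 lower without overlap (18.5%).

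**Figure D2:**
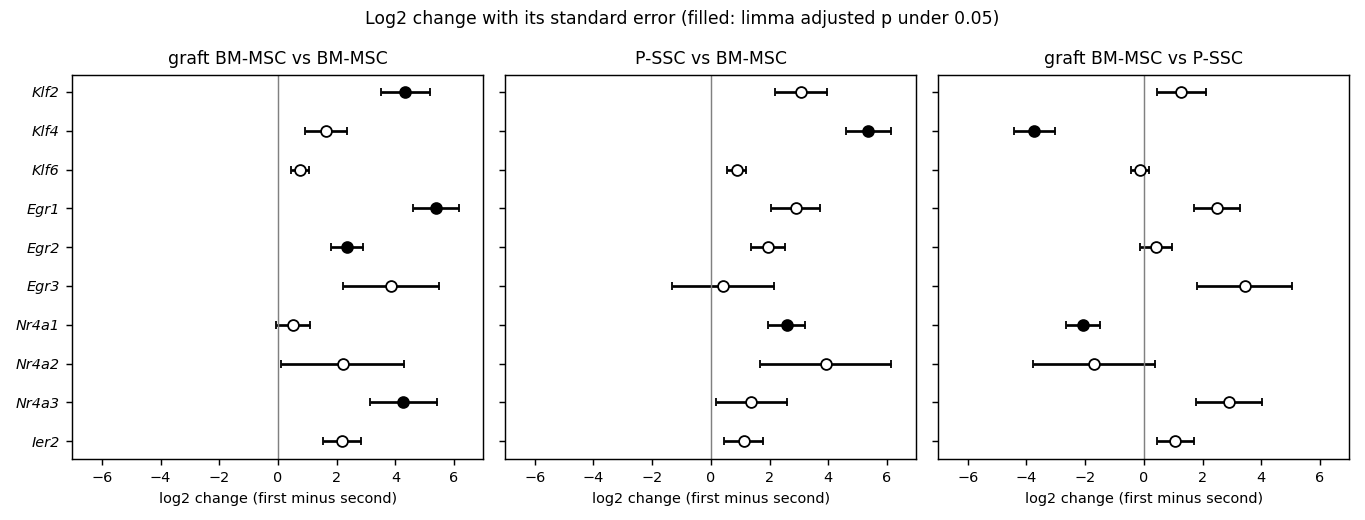
Log2 change of each member in the 3 comparisons, the first-named group minus the second, with bars of 1 standard error and filled circles for a limma adjusted p under 0.05. All 10 circles lie right of 0 in both comparisons with BM-MSCs, and Klf4 and Nr4a1 are the filled circles left of 0 in grafts against P-SSCs.

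Egr1, a zinc finger activator induced through ERK and SRF, had normalized counts of 878, 1083 and 1286 in BM-MSCs. In P-SSCs its counts were 4233 and 3222 in P-SSC 1 and 2+5 and 36250 in P-SSC 4. The graft libraries 1 to 4 held 15279, 72136, 59784 and 61449. Every P-SSC and every graft library was above every BM-MSC library, and P-SSC 4 lay within the graft range. The mean in grafts was 52162 ± 25190 (SD, n = 4) and that in BM-MSCs 1082 ± 204 (SD, n = 3), 48.2-fold apart, with a log2 change of 5.39 (SE 0.79, limma adjusted p = 0.00401). This call was kept without any of the 10 libraries, with adjusted p of 0.0007 to 0.0215, but not with the library class as a covariate (2.09, SE 0.95, 0.61). Against P-SSCs the log2 change was 2.50 (SE 0.79, limma adjusted p = 0.0513), and it passed without P-SSC 4 (3.60, adjusted p = 0.00233) or without graft 1 (3.02, 0.0247). Between P-SSCs and BM-MSCs the log2 change was 2.89 (SE 0.84, limma adjusted p = 0.0613), and it passed without P-SSC 2+5 (0.0428), without graft 1 (0.0466) and within the libraries with GC-rich genes low (1.79, SE 0.23, 0.0107).

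Egr2, a paralog known for its part in myelination and in osteoblasts and osteoclasts, had counts of 109, 315 and 252 in BM-MSCs 1, 2+4 and 3. It had 990, 814 and 602 in P-SSCs 1, 2+5 and 4, and 1238, 1240, 444 and 1769 in grafts. P-SSC and graft values overlapped each other and neither overlapped BM-MSCs. The log2 change of grafts against BM-MSCs was 2.35 (SE 0.54, limma adjusted p = 0.0282). When graft 1, graft 4 or any of the 3 BM-MSC libraries was left out it no longer passed, with adjusted p of up to 0.106, nor did it with the library class as a covariate (2.92, 0.394). P-SSCs against BM-MSCs gave 1.93 (SE 0.58, limma adjusted p = 0.0689), which passed without graft 3 (0.0275), and grafts against P-SSCs gave 0.42 (SE 0.54, limma adjusted p = 0.624). In contrast to Egr1, Egr2 in P-SSC 4 was the lowest of the P-SSC libraries.

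Egr3, a paralog known from muscle spindles and lymphocytes, was scarce. Its counts were 1.04, 2.11 and 21.7 in BM-MSCs and 6.23, 22.9 and 0.969 in P-SSCs, the last being 1 read. The grafts held 10.2, 589, 64.5 and 76.0, and graft 2 stood far above the others. The log2 changes were 3.85 (SE 1.62) against BM-MSCs and 3.44 (SE 1.62) against P-SSCs, with limma adjusted p of 0.169 and 0.168. DESeq2 on the recovered reads called both (4.49 and 4.20, adjusted p = 0.029 and 0.0321), and edgeR called neither.

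Klf4, a factor of epithelial barriers, quiescence and reprogramming, gave the clearest contrast between periosteum and marrow. It had counts of 1207, 1799 and 2889 in P-SSCs 1, 2+5 and 4. BM-MSCs 1, 2+4 and 3 held 56.4, 52.7 and 28.6, and the grafts 187, 230, 42.3 and 197. No P-SSC value overlapped either marrow group, and graft 3 lay within the BM-MSC range while the other 3 grafts lay above it. The P-SSC mean of 1965 ± 853 (SD, n = 3) was 42.8-fold that of BM-MSCs (log2 change 5.36, SE 0.76, limma adjusted p = 0.00102) and 12.0-fold that of grafts (log2 change of grafts minus P-SSCs -3.73, SE 0.71, limma adjusted p = 0.00438). Both calls were kept without any of the 10 libraries, with adjusted p of at most 0.00673 and 0.0241. With the library class as a covariate both passed as well (0.00471 and 0.0315), where the second rests on P-SSC 4 as the only periosteal library of the grafts' class. All 4 grafts lay below P-SSC 4. Grafts against BM-MSCs gave 1.63 (SE 0.71, limma adjusted p = 0.184), which passed without graft 3 (2.19, adjusted p = 0.0407).

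Klf2, a factor of vessel quiescence and of lymphocyte traffic, had counts of 57.4, 179 and 203 in BM-MSCs and 1238, 3710, 2189 and 4581 in grafts. P-SSC 1 and 2+5 held 354 and 774, and P-SSC 4 held 4487. P-SSC 4 again lay within the graft range, and all P-SSC values lay above all BM-MSC values. The graft mean of 2930 ± 1499 (SD, n = 4) was 20.0-fold the BM-MSC mean of 147 ± 78.2 (SD, n = 3), with a log2 change of 4.34 (SE 0.83, limma adjusted p = 0.0129). Without BM-MSC 1 the change was 3.76 and no longer passed (adjusted p = 0.0584), and with the library class as a covariate it was 1.24 (SE 1.15, 0.866). P-SSCs against BM-MSCs gave 3.06 (SE 0.89, limma adjusted p = 0.0603), which passed without P-SSC 1 (3.85, 0.0271). Grafts against P-SSCs gave 1.28 (SE 0.83, limma adjusted p = 0.316), which passed without P-SSC 4 (2.31, adjusted p = 0.0436).

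Klf6, a widely expressed family member known from hepatic stellate cells and wound repair, was abundant in every library. It had counts of 4337, 3534 and 5309 in BM-MSCs, 10959, 8926 and 5219 in P-SSCs and 5146, 9558, 6563 and 8917 in grafts, and all 3 groups overlapped. The log2 changes were 0.76 (SE 0.31) for grafts and 0.88 (SE 0.33) for P-SSCs against BM-MSCs, with limma adjusted p of 0.154 and 0.145. Without P-SSC 4, the lowest P-SSC library for this gene, the second rose to 1.19 and passed (adjusted p = 0.0414).

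Nr4a1 (Nur77), a receptor induced by cyclic AMP, calcium and growth factors, had counts of 10908, 14426 and 6141 in P-SSCs. BM-MSCs held 766, 2471 and 2374, and the grafts 1036, 2125, 2662 and 5421. All P-SSC libraries lay above every marrow library, and the ranges of grafts and BM-MSCs overlapped. The mean in P-SSCs was 10492 ± 4158 (SD, n = 3), 5.61-fold that of BM-MSCs and 3.73-fold that of grafts. The log2 change was 2.58 against BM-MSCs (SE 0.62, limma adjusted p = 0.0248) and -2.06 for grafts minus P-SSCs (SE 0.58, limma adjusted p = 0.0334). The first no longer passed without BM-MSC 1, P-SSC 1 or P-SSC 2+5 (adjusted p of up to 0.103). The second no longer passed without graft 1, 2 or 3, P-SSC 1 or P-SSC 2+5 (up to 0.137), or with the library class as a covariate, where it rests on P-SSC 4 alone (-1.37, adjusted p = 0.484). All 4 grafts lay below P-SSC 4. Grafts against BM-MSCs gave 0.52 (SE 0.58, limma adjusted p = 0.597).

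Nr4a3 (Nor1), its close relative, differed from Nr4a1 in its order of groups. Its counts were 2.09, 12.7 and 10.8 in BM-MSCs, 9.35, 61.1 and 12.6 in P-SSCs and 125, 154, 139 and 199 in grafts. The graft values were close to each other and lay above all other values, including that of P-SSC 4, which held 12.6. The log2 change was 4.27 against BM-MSCs (SE 1.13, limma adjusted p = 0.0461) and 2.89 against P-SSCs (SE 1.13, limma adjusted p = 0.102). The call against BM-MSCs was near the threshold and was kept without P-SSC 4 (0.0386). It was lost without any of the other 9 libraries, with adjusted p of up to 0.152, and with the library class as a covariate (5.17, 0.488).

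Nr4a2 (Nurr1), the family member known from dopamine neurons, had 9.40, 0 and 75.9 in BM-MSCs, 93.5, 72.6 and 390 in P-SSCs and 110, 0, 209 and 143 in grafts. BM-MSC 2+4 and graft 2 held no read, and the groups overlapped. No comparison passed (limma adjusted p of 0.448 to 0.601), with standard errors of 2.09 to 2.23 on the log2 scale.

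Ier2, a small nuclear protein gene of the serum response, had 1806, 1814 and 2768 in BM-MSCs. It had 2325, 3502 and 11321 in P-SSCs 1, 2+5 and 4, and 3111, 17327, 9867 and 15324 in grafts. Every graft library lay above every BM-MSC library, and P-SSC 4 lay with grafts 2 to 4. The log2 change of grafts against BM-MSCs was 2.19 (SE 0.64, limma adjusted p = 0.0671), which passed without P-SSC 4 (0.0365) or graft 1 (0.0198), and P-SSCs against BM-MSCs gave 1.11 (SE 0.68, limma adjusted p = 0.503). Graft 1 was the lowest graft library for Ier2, Egr1, Egr3, Klf2, Klf6, Nr4a1 and Nr4a3.

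Per kilobase of exon, the order of the genes differed between the groups. In BM-MSCs Ier2 had the top mean level, at 1399 ± 363 normalized counts per kb (SD, n = 3), followed by Klf6 at 1001 ± 202, whose ranges overlapped, and Egr1 came 4th at 241 ± 45.5. In grafts Egr1 led with 11633 ± 5618 (SD, n = 4), ahead of Ier2 at 7495 ± 4183, again with overlapping ranges. In P-SSCs Ier2 (3755), Egr1 (3249), Nr4a1 (2990), Klf6 (1906), Klf2 (1013) and Klf4 (644) formed a run in which each overlapped the next, and Egr2 followed at 236 without overlap. Klf4 was 6th in P-SSCs and 7th in both marrow groups. Egr3, Nr4a2 and Nr4a3 took the bottom 3 places in all 3 groups, with means of 1.42 to 45.6 normalized counts per kb.

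**Figure D3:**
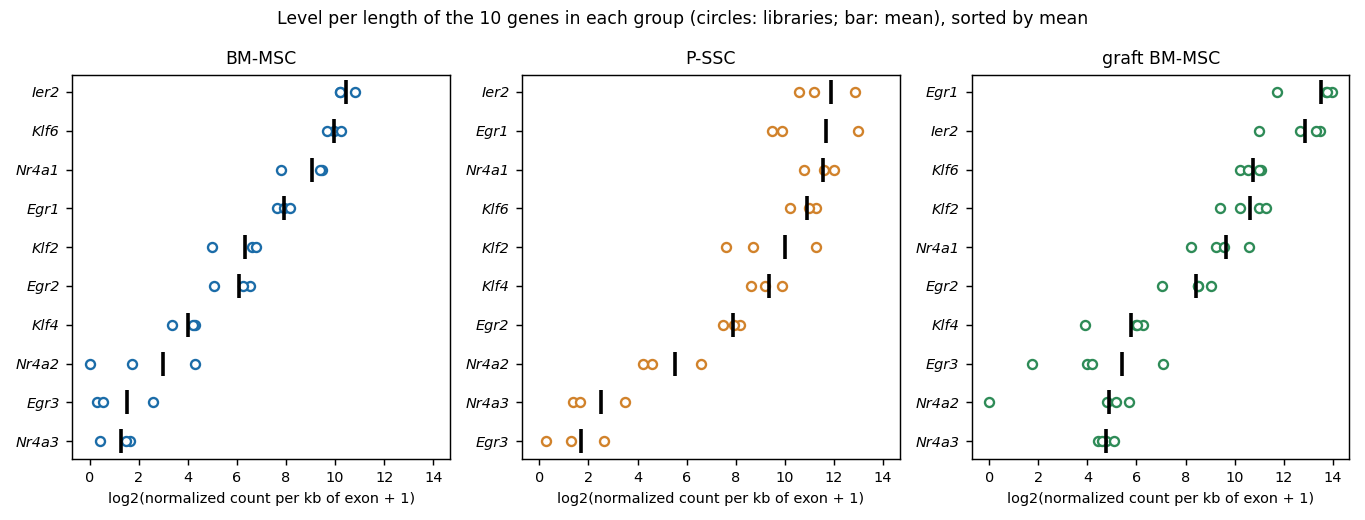
Level per length, as log2(normalized count per kb of exon + 1), with genes sorted by mean in each group, circles for libraries and bars for means. Egr1 moves from 4th place in BM-MSCs to the top in grafts, and the ranges of Ier2 and Egr1 overlap in P-SSCs and in grafts.

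Within P-SSCs, the library P-SSC 4 differed from the mean of the other 2 by log2 differences of 3.29 for Egr1, 3.10 for Klf2, 2.23 for Nr4a2, 1.99 for Ier2 and 0.97 for Klf4, and it was lower for the other 5 members. These 5 ran from -0.58 for Egr2 to -2.74 for Egr3, and the median over all genes was 0.00. Grafts minus P-SSC 4, the comparison inside the class with GC-rich genes high, rested on 1 periosteal library. It equals the contrast of the fit with the library class as a covariate, in which that library is assumed to vary like the others. It gave 0.31 for Egr1 (SE 0.74, limma adjusted p = 0.859), -0.78 for Klf2 (SE 0.89, 0.711) and -0.25 for Ier2 (SE 0.81, 0.899), against 5.27 for Egr3 (0.266), 3.49 for Nr4a3 (0.286), -4.38 for Klf4 (SE 0.99, 0.0315) and -1.37 for Nr4a1 (SE 0.87, 0.484). Inside the class with GC-rich genes low, P-SSCs against BM-MSCs gave log2 changes of 5.03 for Klf4 (SE 0.47, limma adjusted p = 0.00482), 2.93 for Nr4a1 (SE 0.59, 0.0369), 1.79 for Egr1 (SE 0.23, 0.0107) and 1.19 for Klf6 (SE 0.23, 0.0316). The others were 0.45 for Ier2 to 3.17 for Nr4a2 and did not pass, Klf2 among them at 2.02 (SE 0.73, 0.153). Grafts and BM-MSCs shared no class, so the covariate fit compares them only through P-SSCs, with P-SSC 4 as the link. With the library class as a covariate no member passed in grafts against BM-MSCs, and 40 of 13644 genes passed in all (3 members at an unadjusted p under 0.05, and 2 members called by edgeR and 7 by DESeq2 without the covariate).

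The members' own GC content was 42.4% (Klf6) to 61.6% (Klf2), and the median of the genes tested was 49.7%. None lay above 65%, where the median log2 change of 51 genes was 2.52 in grafts against BM-MSCs. Klf2 and Ier2 lay between 60% and 65%, where the median of 498 genes was 0.12 and 7.23% were called higher, and Egr1 and Nr4a1 between 55% and 60%, where the median of 2448 genes was -0.71 and 3.02% were called higher. After a correction for GC content the change of grafts against BM-MSCs was 4.17 for Klf2 (adjusted p = 0.00603), 6.20 for Egr1 (0.00177), 3.25 for Egr2 (0.00842), 5.12 for Nr4a3 (0.0274) and 2.19 for Ier2 (0.0468). In grafts against P-SSCs the same correction took Nr4a1 from -2.06 to -1.13, which no longer passed (adjusted p = 0.235), and Egr1 from 2.50 to 3.42, which passed (0.00709), while Klf4 passed at -2.74 (0.0308). The correction also moved the median log2 change of all genes tested, from -0.47 to 0.28 in grafts against P-SSCs. Against BM-MSCs the median for grafts moved from -0.53 to 0.23. A shift upward was thus common among the genes tested and not particular to these members. In P-SSCs against BM-MSCs Klf4 and Nr4a1 passed at 5.29 (0.00176) and 2.48 (0.036), and Egr1 and Klf2 passed at 2.78 (0.0477) and 2.69 (0.0445).

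**Figure D4:**
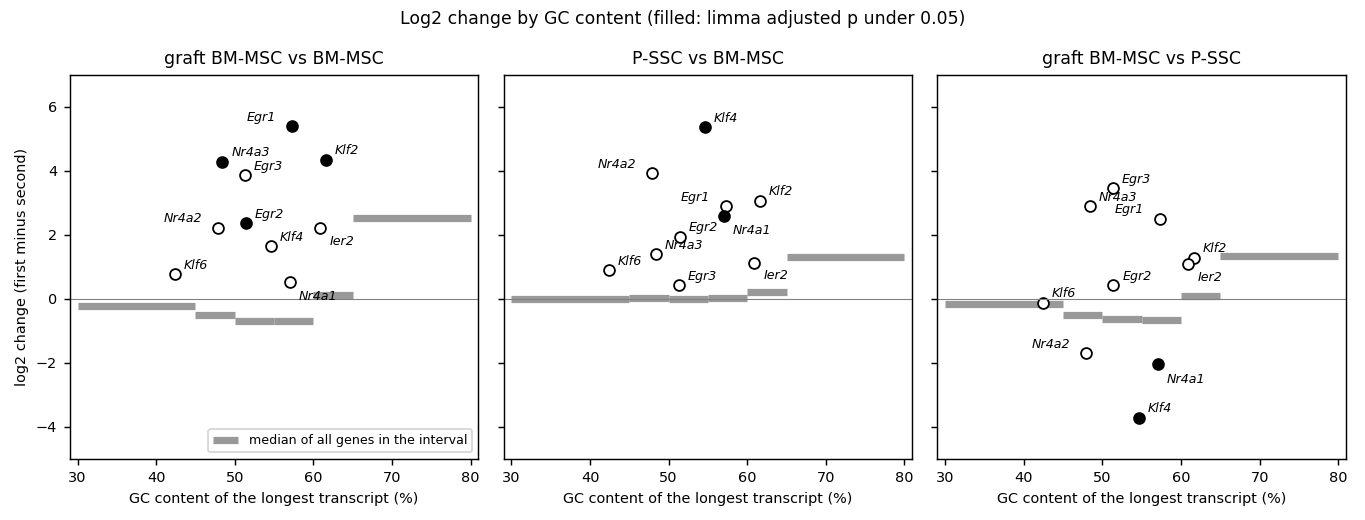
Log2 change of each member (circles, filled for a limma adjusted p under 0.05) against the GC content of its longest transcript in %, in the 3 comparisons, with grey bars at the median change of all genes in each interval of GC content. In grafts against BM-MSCs all 10 members lie above the bar of their interval.

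The MAP kinase feedback inhibitors restrain signals that induce the members. In grafts against BM-MSCs 4 of 11 tested rose and none fell (median log2 change 2.88), in grafts against P-SSCs 5 rose and 1 fell (1.71), and in P-SSCs against BM-MSCs none rose and 1 fell (-0.10). Over all genes 7.67%, 18.1% and 9.15% were called in these comparisons, with medians of -0.53, -0.47 and 0.00. Spry1, an inhibitor of growth factor signals to ERK, had 10828 to 16424 in grafts, 1708 to 1829 in BM-MSCs and 245 to 265 in P-SSCs, with no overlap, and rose by 2.88 against BM-MSCs (SE 0.21, limma adjusted p = 0.000514) and by 5.67 against P-SSCs (SE 0.21, 1.35e-07). P-SSC 4 held 245 of Spry1, while its Egr1 lay in the graft range. Dusp1, a phosphatase that switches off MAP kinases, had 8026 to 41686 in grafts, 406 to 447 in BM-MSCs, 784 and 1113 in P-SSC 1 and 2+5 and 20380 in P-SSC 4, and rose by 5.82 against BM-MSCs (SE 0.98, limma adjusted p = 0.00725). Spred1, another inhibitor of this path, rose by 3.36 against BM-MSCs (SE 0.74, limma adjusted p = 0.0242) and held 65.9 in P-SSC 4.

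Few of the regulators upstream of the members passed outside grafts against BM-MSCs. The shares of all genes called were 7.67% (grafts against BM-MSCs), 9.15% (P-SSCs against BM-MSCs) and 18.1% (grafts against P-SSCs). For the 14 genes named next, 1 call in P-SSCs against BM-MSCs and 1 in grafts against P-SSCs were not above these shares. Of 14 serum response and MEK5-ERK5 genes, Mef2a and Mef2d rose in grafts against BM-MSCs (3.01 and 2.80, limma adjusted p = 0.0404 and 0.0269), and Mrtfa, a coactivator of SRF, fell (-3.70, 0.00808). Mef2a had 437 in P-SSC 4, within the graft range of 332 to 1532, Mef2d had 1469, above the graft range of 571 to 1134 and the highest of the P-SSC libraries, and Mrtfa had 464, above the graft range of 21.1 to 106. Mef2d also rose in P-SSCs against BM-MSCs (2.49, 0.0468), and Mrtfa was the only one to pass between grafts and P-SSCs (-3.59, 0.00301). The median log2 changes were 0.78, 0.44 and 0.74. The EGR co-repressors Nab1 and Nab2 did not pass in any comparison (median log2 change 0.37 in grafts and -0.51 in P-SSCs, each against BM-MSCs, and 0.88 between grafts and P-SSCs).

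Of 12 other KLF genes tested, Klf9, a glucocorticoid-responsive factor, and Klf3, a repressor, rose in grafts against BM-MSCs (3.16 and 2.19, limma adjusted p = 0.0125 and 0.0409). Their values in P-SSC 4 were 2021 and 3292, within or above the graft ranges of 1345 to 3585 and 798 to 2301. Klf15 rose in grafts against P-SSCs (4.66, 0.0255), with 230 in P-SSC 4 and 466 to 1201 in grafts. Klf1, the red cell factor of the family, fell in P-SSCs against BM-MSCs (-8.33, 0.0387), beside red cell markers of 202 to 1407 and 58705 to 205924 in those groups. The median log2 changes of this list were 1.05 in grafts and 0.73 in P-SSCs against BM-MSCs and 0.58 between grafts and P-SSCs. Over all genes the medians were -0.53, 0.00 and -0.47, and 7.67%, 9.15% and 18.1% were called.

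Other early response genes passed in both directions. Of 25 tested, 6 rose and none fell in P-SSCs against BM-MSCs (median 1.75), 4 rose and none fell in grafts against BM-MSCs (0.96), and 4 rose and 4 fell in grafts against P-SSCs (-0.71). Over all genes 9.15%, 7.67% and 18.1% were called, with medians of 0.00, -0.53 and -0.47. Atf3, a stress-induced repressor, had 17579, 20556 and 7416 in P-SSCs, 283 to 764 in BM-MSCs and 79.1 to 958 in grafts, a log2 change of 4.84 against BM-MSCs (SE 0.84, limma adjusted p = 0.00375). Gem, a small GTPase, had 6148, 4233 and 2012 in P-SSCs and at most 120 in BM-MSCs and 344 in grafts (5.21 against BM-MSCs, SE 0.66, 0.000581). Both were thus high in P-SSCs of either library class. Ier5 had 78.9, 98.1 and 1341 in P-SSCs, 45.3 to 55.4 in BM-MSCs and 825 to 2050 in grafts (4.82 for grafts against BM-MSCs, SE 0.89, 0.0107), and here P-SSC 4 lay with the grafts. Ier5l rose in grafts by 6.28 against BM-MSCs (SE 1.18, 0.0117), with 19.4 in P-SSC 4.

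Of 7 AP-1 genes tested, partners of the members in the early response, Jun and Jund rose in grafts against BM-MSCs (4.46 and 6.91, limma adjusted p = 0.0242 and 0.00655), where 2.61% of all genes were called higher. None passed in P-SSCs against BM-MSCs, where 9.15% of all genes were called. Between grafts and P-SSCs Jund rose and Fosl2 fell (3.83 and -2.92, 0.0423 and 0.0146), where 18.1% of all genes were called. Median log2 changes were 1.56, 1.97 and -0.28. Jun had 735, 1050 and 23884 in P-SSCs 1, 2+5 and 4 and 7983 to 21308 in grafts. Jund, with a GC content of 67.1%, had 31.2, 61.1 and 1480. In both, P-SSC 4 stood apart from the other P-SSC libraries, as it did for Egr1. Fos, the most abundant of them, had 80967 to 151803 in P-SSCs, 20847 to 38402 in BM-MSCs and 26928 to 161157 in grafts.

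The genes whose profiles over the 10 libraries lay closest to those of 3 members were sought among 9538 genes with a mean of at least 100, by the mean absolute difference of centred log2 values. For Egr1 they were Dusp1 (0.41), Ier5 (0.43) and Pnrc1 (0.51), and for Nr4a1 Myc (0.39), Ifi204 (0.40) and Mt1 (0.47). For Klf2 they were Efhd2 (0.60), Slc49a4 (0.61) and Ppp3r1 (0.61), so its nearest profiles were less close. Among the members themselves the closest pairs were Klf6 with Egr2 (0.66) and Klf2 with Egr1 (0.67). The libraries share their class and depth across genes, so these distances describe the table only.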

How the data were processed

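Poly-A RNA of sorted cells was sequenced in 10 libraries. The authors' methods give STAR 2.6.1d, GRCm38 and DESeq2, while the submitters' processing notes name GRCm39, FastQC 0.11.5, cutadapt 1.15, STAR 2.5, featureCounts in Subread 1.4.6 and DESeq2 1.26.0. The counting settings and the strand setting were not given in the sources used here. The deposited signal values are gene counts divided by a size factor per library. Every value was a whole multiple of 1 step, so whole reads were recovered for 100% of values (tolerance 0.1 read), and the count tests ran on these. Counting floors (3 reads, 0.119 to 0.195 ppm) cover counting error only.

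Groups came from the labels. Of the genes, 13644 had a mean of 10 or more and were tested, and 1434 did not, by limma 3.58.1 in R 4.3.3 on log2(value + 1), with 1 mean per group, 7 residual degrees of freedom, a variance trend and two-sided tests, so log2 changes understate those of scarce genes. edgeR 4.0.16 (316 to 1531 genes called) and DESeq2 1.42.0 (1515 to 2908) were alternatives, beside other pseudocounts, filters, scalings, library classes, a GC correction and leaving out each library. The code was tested on simulated data. Libraries of a group differed beyond sampling noise (chi-square of at least 72.2 per degree of freedom). Positions, lengths and GC content came from GENCODE M21 (GRCm38), matched by Ensembl ID for 15052 of 15078 genes. Named were all members, up to 3 rises and 3 falls per other list and comparison past the threshold, and the 3 nearest profiles of Klf2, Egr1 and Nr4a1; Fos and the values of single libraries were added after seeing them. Members and lists were chosen with earlier results of these data known.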

Additional observations from a re-analysis of the deposited data

Results flagged for a closer look

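Of the 10 members, 1 had a graft library that stood apart from the other 3 by Dixon's test: Egr3 in graft 2, at 589 normalized counts beside 10.2, 64.5 and 76.0. The test was made on normalized counts, not on the log2 values used elsewhere. For normally distributed values, chance passes its limit in about 1 group in 20, and 10 members were looked at. How often chance gives such a value in counts like these was not tested.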

How the results depend on the processing

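Of 300 log2 changes of members computed with 1 library left out, 260 kept direction and side of the threshold, 23 lost the call, 11 gained it and 6 reversed. Where the library left out was in neither group compared, the log2 change could not move and only the shared spread did. Of 334 under the other alternatives these counts were 280, 23, 24 and 7, and no reversed value had passed the test. In grafts against P-SSCs, Klf6 (-0.13) reversed to 0.38 with quantile normalization, 0.40 with the GC correction, 0.49 with the library class as a covariate and 0.04 and 0.10 without graft 1 and P-SSC 1 (-0.43 to 0.10 with a library left out), Klf2 and Ier2 became -0.78 and -0.25 with that covariate, and Nr4a2 became 0.10 without graft 2 (-2.47 to 0.10). In grafts against BM-MSCs, Nr4a2 became -0.02 with the covariate and Nr4a1 -0.03 without BM-MSC 1 (-0.03 to 0.92). In P-SSCs against BM-MSCs, Egr3 became -0.27 without BM-MSC 1 and -0.47 without P-SSC 2+5 (-0.47 to 1.47).

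Members called in grafts against P-SSCs (2) numbered 1 with edgeR, 4 with DESeq2, 1 with only both groups in the fit, 1 with the covariate and 1 to 4 with a library left out (4 without P-SSC 4, 1 without graft 2, graft 3, P-SSC 1 or P-SSC 2+5). In grafts against BM-MSCs (4) they numbered 2 with edgeR, 7 with DESeq2, 2 with only both groups, 0 with the covariate in limma (3 members at an unadjusted p under 0.05) and 1 to 5 with a library left out (1 without BM-MSC 1). In P-SSCs against BM-MSCs (2) they numbered 4 with a pseudocount of 5, 4 with quantile normalization, 1 with edgeR, 5 with DESeq2, 4 with the GC correction, 4 within the class with GC-rich genes low and 1 to 3 with a library left out (1 without BM-MSC 1). The cause of these differences was not tested.

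The sources used here do not say that a replicate number marks the same mouse in different groups, and same-numbered libraries correlated at -0.0191 to 0.0295. With them as a replicate block limma called 0 members in each comparison (2, 5 and 4 at an unadjusted p under 0.05), 269, 3 and 54 genes passed in all, and Egr3 became -0.04 in P-SSCs against BM-MSCs. The median of all genes in grafts against BM-MSCs moved from -0.53 to -0.17 with quantile normalization, -0.05 with edgeR and 0.23 with the GC correction. Depth limits Egr3, Nr4a2 and Nr4a3 only.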
